A study of Mus musculus with 2 samples.

Results

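A set of 9 CC chemokine genes was followed in cultured myofibroblasts of the mouse small intestine. Of these, 5, Ccl2, Ccl7, Ccl11, Ccl12 and Ccl8, lie side by side in 1 gene cluster on chromosome 11, and the others, Ccl5, Ccl20, Ccl24 and Ccl25, lie elsewhere. The 9 genes were taken by name from the 22180 named genes of the array, and each was read by 1 probeset, a group of probes along the exons of its transcript. The label holds eotaxin (Ccl11), the monocyte attractants of the cluster and a few CC chemokines known for calling other cells.

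The series has 2 groups of 1 array each. Both hold RNA of subepithelial myofibroblasts from wild-type BALB/c mice, cultured for 1 day. One group (non-stimulated) had no addition and the other (stimulated) received 5 mg/ml of a homogenate prepared from eosinophils of the intestine. For each group, 3 cultures were grown and their RNA was pooled before the array, so there is no replicate, no error and no test between the conditions. All values below describe these 2 pools, and the number of arrays limits their precision. The labels do not say whether the cultures came from different animals.

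CC chemokines are small secreted proteins that carry a pair of adjacent cysteines near their amino end and act on G protein-coupled receptors of leukocytes. They are held on glycosaminoglycans of the tissue, where they form a gradient that draws in cells with the matching receptor. In the small intestine Ccl11, acting on the receptor Ccr3, is known for keeping eosinophils in the lamina propria at rest, and ligands of Ccr2 bring monocytes from the blood. Stromal cells under the epithelium are a known source of both kinds of signal.

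Values are log2 expression as deposited, and a difference is stimulated minus non-stimulated. Levels of different genes are not compared, since probesets differ in how brightly they bind. Summed levels of markers, given further below, are weighted by that brightness and do not measure the amount of a cell type. A gene was called above background when it passed the level that 95% of the 1405 probesets for odour and pheromone receptors (olfactory and vomeronasal genes, taken as silent here) stayed under. That level was 5.58 without homogenate and 5.57 with it. Where a pair of readings is given for a gene, the first is from the non-stimulated and the second from the stimulated array. By that mark 14065 named genes were above background on at least 1 array. Of the 9 chemokine genes, 7 were above it on both arrays and 2, Ccl12 and Ccl24, were under it on both.

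The cultures carried the transcripts of their labelled cell type. All 9 fibroblast markers and all 5 markers of myofibroblasts and smooth muscle were above background, among them Vim at 13.10 and 13.16 and Acta2 at 13.07 and 12.78. All 5 contractile markers read lower with homogenate, and their median difference was -0.53. One label field names eosinophils as the source of both samples, but the eosinophil granule genes Epx (4.73 and 5.25) and Prg2 (4.75 and 4.32) and the eotaxin receptor gene Ccr3 (3.23 and 3.16) were under background on both arrays. Of the 8 eosinophil markers read, 2 were above background on at least 1 array, Alox15 on both (5.68 and 5.87) and Cebpe on the non-stimulated array alone (5.91 and 5.46).

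Chemokine genes of the cluster stood higher on the stimulated array, apart from Ccl12, which was under background and has no measured difference. The members of the list outside the cluster read nearly the same on both arrays. Ccl11 was 3.65-fold, Ccl2 2.95-fold, Ccl7 2.33-fold higher, and the log2 difference of Ccl8 was 0.59. Ccl5, Ccl20 and Ccl25 differed by at most 0.02 on the log2 scale. Thus 3 of the 7 members above background were at least 2-fold higher and none was lower. Of all 14065 genes above background, 27, or 0.192%, were at least 2-fold higher, and 6, or 0.0427%, were at least 2-fold lower. The genes were chosen with these results known, so their count is a description of the list and no evidence for it.

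Sequence upstream of the transcription start was available for 4 of the 9 genes, from RefSeq (GRCm38.p6): Ccl8, Ccl12, Ccl20 and Ccl25. Ccl2, Ccl5, Ccl7, Ccl11 and Ccl24 were not matched. The first 3 of these are shown, since they contrast 2 close neighbours of the cluster, Ccl8, which read higher with homogenate, and Ccl12, which was under background, with Ccl20, a chemokine gene outside it that read the same on both arrays. Each is the 250 bases before the start, on the plus strand, at chr11:82114935-82115184 for Ccl8, chr11:82101595-82101844 for Ccl12 and chr1:83116516-83116765 for Ccl20. Capitals mark matches to 5 motifs that were searched on both strands: TATAAA, which is part of the TATA box, the STAT motif TTCNNNGAA, the STAT6 motif TTCNNNNGAA, the AP-1 motif TGANTCA and the NF-kB consensus.
Ccl8: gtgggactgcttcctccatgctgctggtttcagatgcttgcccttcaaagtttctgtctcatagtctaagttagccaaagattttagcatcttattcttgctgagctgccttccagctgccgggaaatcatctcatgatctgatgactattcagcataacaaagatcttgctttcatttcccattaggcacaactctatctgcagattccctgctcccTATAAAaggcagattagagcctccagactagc
Ccl12: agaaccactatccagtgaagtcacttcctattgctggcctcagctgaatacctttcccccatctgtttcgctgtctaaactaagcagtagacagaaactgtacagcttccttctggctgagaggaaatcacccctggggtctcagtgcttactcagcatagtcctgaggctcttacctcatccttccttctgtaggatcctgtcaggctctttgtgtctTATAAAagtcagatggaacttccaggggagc
Ccl20: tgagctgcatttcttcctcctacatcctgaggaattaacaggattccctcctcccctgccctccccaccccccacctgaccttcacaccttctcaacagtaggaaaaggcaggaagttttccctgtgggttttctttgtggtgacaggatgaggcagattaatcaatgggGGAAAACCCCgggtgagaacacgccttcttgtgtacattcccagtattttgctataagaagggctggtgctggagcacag

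Ccl8 and Ccl12 each held TATAAA at about the same place, from -32 to -27 in Ccl8 and from -31 to -26 in Ccl12, counted back from the start. This word is present in 12.4% of the 32851 promoter windows of this length. The Ccl20 window held a match to the NF-kB consensus on the minus strand from -80 to -71, and 7.25% of all windows hold such a match. None of the 3 windows held a STAT, STAT6 or AP-1 match, which 7.02%, 5.85% and 6.75% of all windows hold. No match overlapped another. A match is a description of these letters, and nothing about binding was measured.

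**Figure D1:**
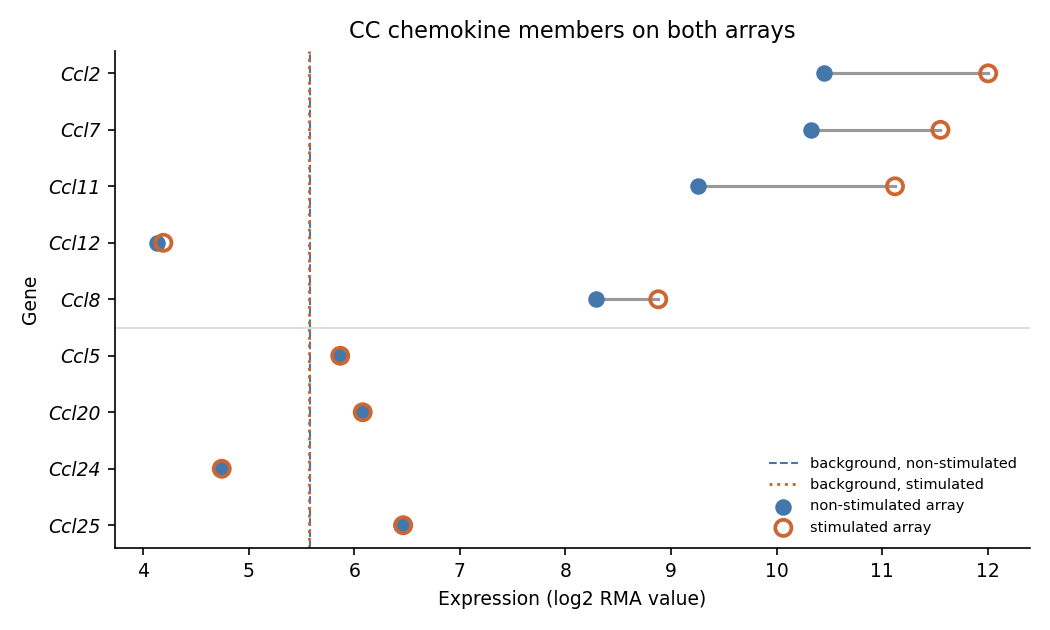
Log2 expression (x axis) of the 9 CC chemokine genes (y axis) on the non-stimulated array (filled blue circles) and the stimulated array (open orange circles), 1 array each, with the background level of each array as a vertical line; the 5 cluster genes are above the grey line. Ccl2, Ccl7, Ccl11 and Ccl8 lie to the right of background and are higher on the stimulated array, Ccl12 and Ccl24 lie to its left, and the circles of Ccl5, Ccl20 and Ccl25 coincide within 0.02.

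Ccl11, the eotaxin that attracts eosinophils through Ccr3, had the largest difference of the family. It read 9.26 without homogenate and 11.12 with it, a difference of 1.87. Both readings were far above background, by 3.67 and 5.55. Among the 14065 genes above background it ranked 9 from the highest difference. None of the 500 genes nearest to it in mean value had a difference as high, and the central 95% of those genes lay between -0.27 and 0.30.

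The other eotaxin on the list, Ccl24, also acts on Ccr3 and showed no reading above background. It was at 4.74 on both arrays, so no difference could be measured. Ccl26, another eotaxin gene and no member of the list, was likewise under background, at 4.22 and 4.53. Ccl11 was therefore the sole eotaxin gene above background on these arrays.

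Ccl2, the main ligand of the monocyte receptor Ccr2, read 10.45 without homogenate and 12.00 with it. The difference of 1.56 placed it at rank 12, and none of the 500 genes of like mean value was as high. Ccl7 attracts monocytes through Ccr2 and can also act on the eosinophil receptor Ccr3. It read 10.33 and 11.55, a difference of 1.22 and rank 16, and 1 of its 500 genes of like mean value was as high. Both genes were well above background already in cells that had met no homogenate, by 4.86 for Ccl2 and by 4.75 for Ccl7.

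Ccl8, another monocyte attractant of the cluster, which in the mouse also acts on the receptor Ccr8, read 8.29 and 8.88. Its difference of 0.59 was short of 2-fold and had rank 112. It lay above the central 95% of genes of like mean value, which ran from -0.29 to 0.31, and 3 of those 500 genes were as high. Ccl12, a mouse ligand of Ccr2, read 4.13 and 4.19, under background by 1.45 and 1.37, and has no measured difference. Of the monocyte attractants, Ccl2 and Ccl7 thus passed 2-fold and Ccl8 did not. Ccl12, under background, cannot be compared with them.

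**Figure D2:**
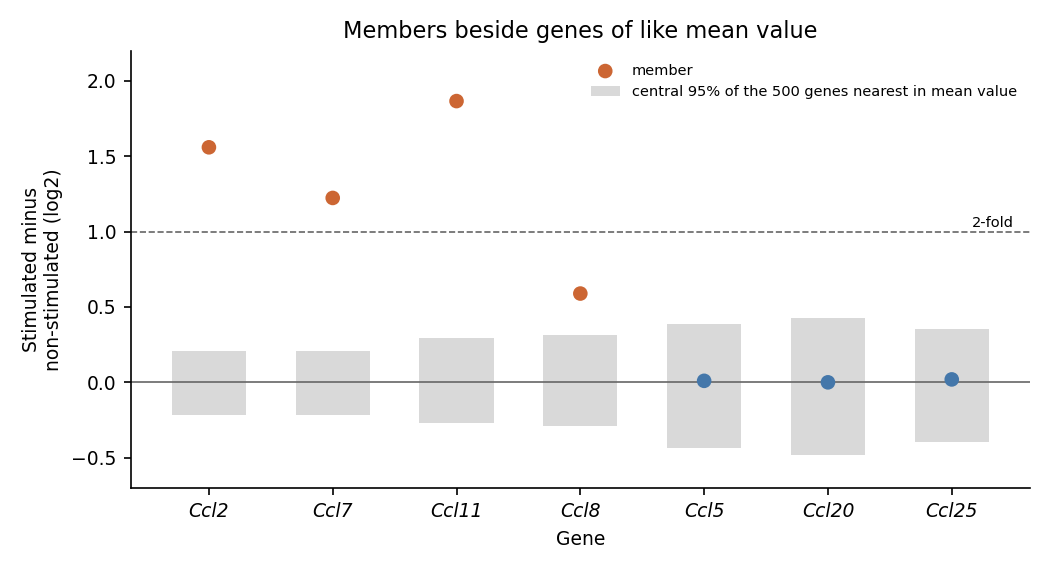
Difference between the arrays on the log2 scale (y axis) of the 7 members above background (x axis; orange, cluster genes; blue, other members), with grey bars for the central 95% of the 500 genes nearest in mean value. The 4 cluster genes lie above their bars, Ccl11 at 1.87 and Ccl8 at 0.59, and the other 3 lie within theirs near 0.

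Gene order in the cluster, taken from RefSeq, is Ccl2, Ccl7, Ccl11, Ccl12 and Ccl8, followed by Ccl1. The 3 genes at one end were those past 2-fold. Ccl12, next in order among the protein-coding genes, was under background, and Ccl8 beyond it was higher by 0.59. Ccl1, a ligand of Ccr8, was under background at 4.98 and 5.11, as was the next protein-coding gene, Tmem132e, at 4.87 and 5.02. Higher readings were thus seen on both sides of a gene that was not above background.

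The median difference of the 4 cluster genes above background was 1.39, with the lowest at 0.59 and the highest at 1.87. With Ccl12 included as measured, the median of the 5 was 1.22. Over the 3 members outside the cluster that were above background, the median was 0.01, and it was 0.00 over all 14065 genes. With so few genes, chosen by name, these medians are descriptions without a test.

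**Figure D3:**
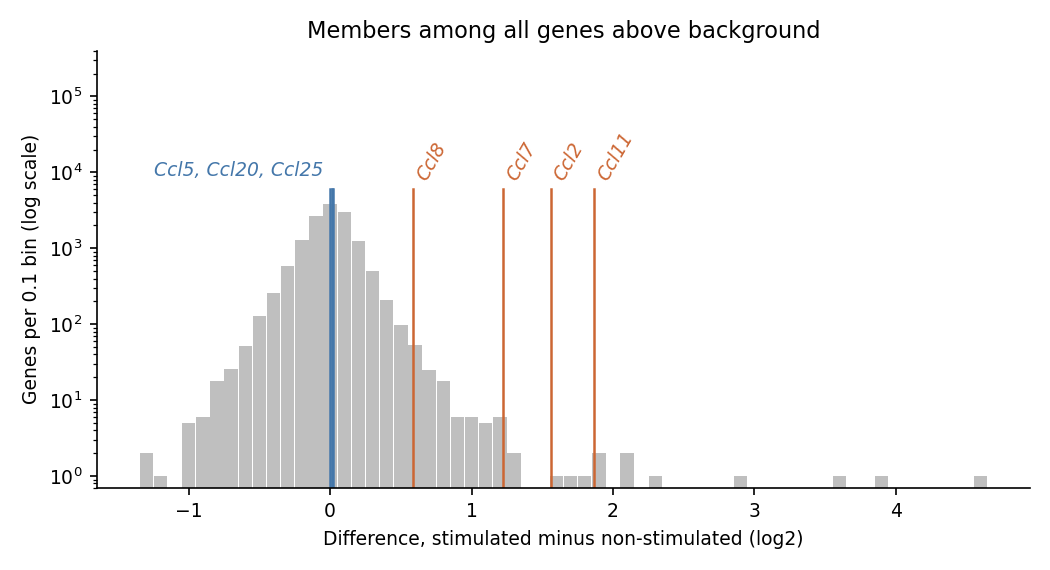
Number of genes (y axis, log scale) by difference between the arrays (x axis, log2, bins of 0.1) for the 14065 genes above background, with lines at the members (orange, cluster genes; blue, other members). Ccl5, Ccl20 and Ccl25 stand at the peak of the distribution, and Ccl7, Ccl2 and Ccl11 stand in its thin upper tail, from 1.22 upwards.

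Outside the cluster, Ccl5 attracts T cells, monocytes and eosinophils and is a common product of inflamed tissue. It read 5.86 and 5.87, a difference of 0.01, only 0.28 and 0.30 above background. Ccl20, the ligand of Ccr6 that draws dendritic cells and some lymphocytes to the gut epithelium, read 6.08 on both arrays. Ccl25, which epithelial cells of the small intestine make to guide lymphocytes with the receptor Ccr9, read 6.44 and 6.46, a difference of 0.02. These 3 readings were close to background and lay inside the central range of genes of like mean value.

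The limit that background sets on them depends on where it is drawn. At the 99th percentile of the receptor probesets, which was 6.80 without and 6.65 with homogenate, 4 of the 5 cluster genes were still above it and none of the members outside the cluster was. A transcript near background can differ by more than its probeset shows. Ccl20 and Ccl24 each had the same value on both arrays to every deposited digit, as had 1.61% of the genes above background and 2.96% of all 41345 probesets.

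Among all CC chemokines, 19 genes had a probeset of their own, 9 of them above background. Besides the members these were Ccl9, a macrophage product that attracts myeloid cells, at 6.27 and 6.63, and Ccl4, an attractant of macrophages and T cells, at 5.76 and 5.97. Their differences of 0.36 and 0.21 were in the same direction as those of the cluster. Both belong to a second group of CC genes on chromosome 11 that runs from Ccl5 through Ccl9, Ccl6 and Ccl3 to Ccl4. Ccl6 (3.89 and 3.78) and Ccl3 (5.13 and 5.28) were under background there. No gene of that second group reached 2-fold.

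The remaining CC genes were under background on both arrays. Ccl17 and Ccl22, ligands of Ccr4 on type 2 T cells, read 4.39 and 4.56, and 4.89 and 4.74. Ccl28, an epithelial chemokine, read 5.51 and 5.38, and the probeset that stands for the skin chemokine gene Ccl27a read 5.31 and 5.55. Probesets that Ccl27a shares with near-identical copies read up to 6.95 and 6.98 and cannot be assigned to 1 gene. The call for Ccl27a thus rests on the 2 probesets annotated to it alone, the other of which read 4.66 and 4.44. The one that stands for the gene had, on each array, the same value as probesets annotated to 5 genes. Its reading can therefore not be taken as specific to Ccl27a. In all, 8 of the 9 CC genes above background read higher on the stimulated array, 0 lower and 1 equal. Their median was 0.36, while 50.2% of all genes above background were higher. The 8 include Ccl5 and Ccl25, at only 0.01 and 0.02. They also include Ccl4, which lay inside the central range of genes of like mean value (-0.44 to 0.38). Ccl9 lay just above its range, which ended at 0.34. At the stricter background given above, 4 CC genes remained, all of the cluster. Probesets shared by gene copies, such as those of Ccl21, which read lower, are not in the count. The 3 CC genes past 2-fold were all in the Ccl2 to Ccl8 cluster.

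**Figure D4:**
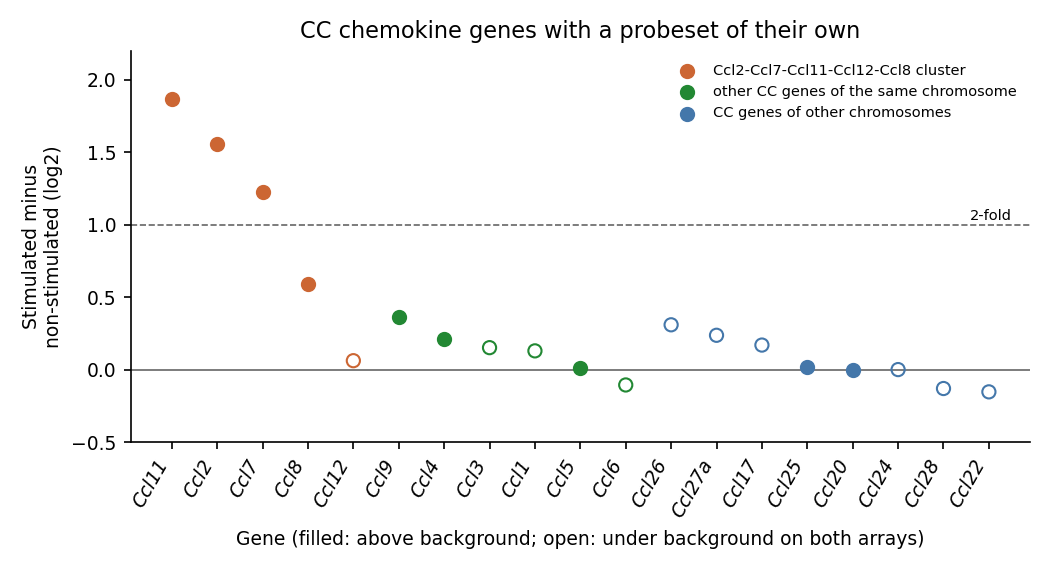
Difference between the arrays on the log2 scale (y axis) for the 19 CC chemokine genes with a probeset of their own (x axis), filled where above background and open where under it on both arrays. Orange marks the Ccl2 to Ccl8 cluster, green other CC genes of chromosome 11 and blue CC genes of other chromosomes; 3 orange points pass the dashed 2-fold line and the next highest, Ccl8, is at 0.59.

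The receptors for these chemokines were nearly all under background in the myofibroblasts. Of 13 CC receptor and decoy receptor genes on the array, 2 were above it. Ackr2, a decoy receptor that removes inflammatory CC chemokines, read 6.37 and 6.47, and Ccr7, a receptor of lymph node homing, read 6.08 with homogenate, higher by 0.07 than without it. The receptors of the cluster's ligands read 4.41 and 4.16 for Ccr1, 4.44 and 4.36 for Ccr2, 3.23 and 3.16 for Ccr3 and 4.67 and 4.24 for Ccr8. Those of the other members read 5.05 and 5.17 for Ccr6 and 4.50 and 4.13 for Ccr9. Ccr4 (4.63 and 4.84), Ccr10 (5.05 and 5.33), Ccrl2 (4.79 and 4.52), Ackr1 (4.98 and 5.08) and Ackr4 (5.17 and 4.60) were also under background. The ligand genes were therefore measured in cells whose own receptor genes, except Ackr2 and Ccr7, gave no reading above background.

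Genes of signalling routes known to act on these chemokines were read next. A difference of at least 0.3 on the log2 scale served to name them, which 4.53% of all genes above background reached towards higher and 5.2% towards lower values. NF-kB, a transcription factor of inflammation, drives Ccl2 and other genes of the cluster. Of 12 genes of its route, all above background, 10 were higher and 2 lower, and the median was 0.25 beside 0.00 for all genes. Past 0.3 were 4, all higher: Nfkbia (7.70 and 8.54) and Nfkbiz (7.96 and 8.64), 2 inhibitor family genes that NF-kB itself switches on, Bcl3 (7.73 and 8.51) and the subunit gene Relb (7.66 and 7.97). The subunit genes Rela (10.17 and 10.25) and Nfkb2 (8.21 and 8.28) differed by less than 0.1. The 2 lower genes, Nfkbib (7.99 and 7.97) and Tnfaip3 (6.63 and 6.62), differed by -0.02 each.

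All 13 genes of receptors and adaptors upstream of NF-kB read higher on the stimulated array, by small amounts, with a median of 0.14. Of all genes above background, 50.2% were higher. Past 0.3 were the interleukin-1 receptor genes Il1r1 (7.67 and 8.30) and Il1rap (8.31 and 8.74), the TNF receptor gene Tnfrsf1b (7.99 and 8.36) and the IL-17 receptor adaptor gene Traf3ip2 (7.61 and 7.91). The Toll-like receptor genes Tlr2, Tlr3 and Tlr4 differed by 0.14, 0.21 and 0.11. Neither list had a gene past 2-fold.

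IL-4 and IL-13 act through STAT6 and are known inducers of Ccl11 in stromal cells. Of 9 genes of this route, 6 were higher and 3 lower, and the median was 0.06. The receptor chain genes Il13ra1 (8.62 and 9.20) and Il4ra (8.33 and 8.79) were past 0.3 towards higher values, and Cish, a gene that STAT factors switch on, was past it towards lower values (6.24 and 5.87). Stat6 itself read 9.21 and 9.27.

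Among C/EBP and AP-1 factors 6 of 10 genes were higher and 4 lower, and the median was 0.11. The inflammation-linked C/EBP genes Cebpd (6.83 and 7.63) and Cebpb (8.29 and 8.77) were past 0.3, while Jun (9.53 on both arrays) and Fos (7.16 and 7.27) were not. Of 9 genes for proteins that bind and destabilise or stabilise chemokine transcripts, 7 were higher, with a median of 0.12. Zc3h12a, a ribonuclease gene that degrades inflammatory transcripts, read 7.30 and 7.80, and Zfp36l1 (9.42 and 9.75) and Rc3h1 (9.53 and 9.85), both for proteins that shorten transcript life, also passed 0.3.

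Secreted chemokines are trimmed by proteases and held by proteoglycans. Of 18 such genes, 13 were above background, of which 11 were higher and 2 lower, and the median was 0.06. Mmp3 (6.82 and 9.09), Mmp9 (8.27 and 10.37) and Mmp13 (7.09 and 8.79), metalloproteinase genes, were past 2-fold, and Mmp12 (7.11 and 7.68) and the proteoglycan gene Vcan (9.59 and 10.13) passed 0.3. Mmp2, whose product is known to trim Ccl7, read 11.51 and 11.55, and Dpp4, whose product trims Ccl11, was under background at 3.65 and 3.86. The syndecan genes Sdc1, Sdc2, Sdc3 and Sdc4 differed by 0.12 or less.

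Other factors that act on eosinophils and monocytes showed smaller differences than the cluster genes. Csf1, the growth factor of macrophages, read 10.52 and 10.84, the adhesion gene Icam1 read 6.27 and 6.62 and the chemokine gene Cx3cl1 read 6.02 and 6.34. Vcam1 (8.29 and 8.58) was just under 0.3, and the alarmin gene Il33 (7.24 and 6.99) and Cxcl12 (9.68 and 9.51) were lower. The eosinophil growth factor genes Il5, Il3 and Csf2 and the alarmin gene Tslp were under background. Of the 7 genes above it, 5 were higher, with a median of 0.29.

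**Figure D5:**
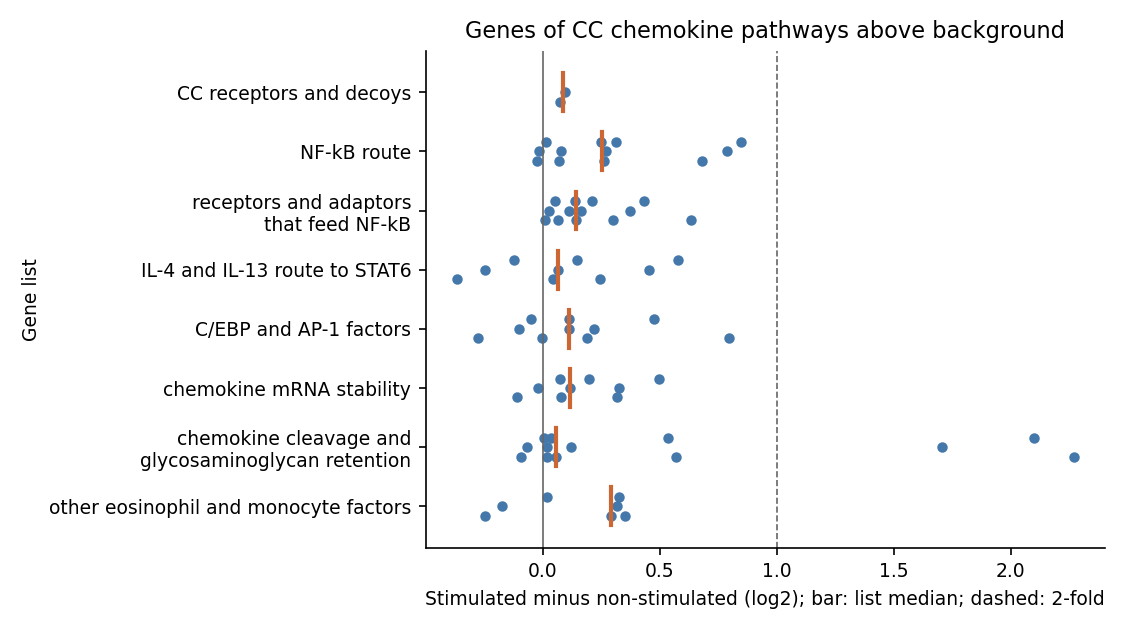
Difference between the arrays on the log2 scale (x axis) for each gene above background (blue points) in 8 lists of genes linked to CC chemokines (y axis), with the list median as an orange bar and 2-fold as a dashed line. The points past 2-fold are Mmp13, Mmp9 and Mmp3, and the NF-kB route has its median at 0.25.

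The genes above background on both arrays with differences nearest to those of the leading chemokines were found over the 2 arrays, by the gap between log2 differences among 12098 genes. Nearest to Ccl11 were Cp, for the plasma ferroxidase ceruloplasmin (1.93, a gap of 0.07), Mmp13 (1.71, a gap of 0.16) and the non-coding RNA U90926 (2.05, a gap of 0.19). Nearest to Ccl2 were Mmp13 (a gap of 0.15), the chemokine gene Cxcl16 (1.30, a gap of 0.26) and the cystine transporter gene Slc7a11 (1.25, a gap of 0.31). Nearest to Ccl7 were the stromelysin gene Mmp10 (1.22, a gap of 0.01), Slc7a11 (a gap of 0.03) and Cxcl16 (a gap of 0.07). With 2 arrays, likeness means only a similar difference.

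Leukocytes also make several of these chemokines, and more cells of a type cannot be told apart from more RNA per cell in pooled cultures. Of 12 macrophage and monocyte markers, 4 were above background on at least 1 array, and of these 3 read higher and 1 lower with homogenate. The 4 were Cx3cr1 (6.57 and 6.81), Cd68 (6.31 and 6.52), C1qa (5.97 and 5.81) and Lyz2 (5.15 and 5.66). The defining genes Adgre1 (4.51 and 4.57) and Csf1r (5.36 and 5.43) were under background. The summed linear level of the 12 was 526 without homogenate and 568 with it, and this sum includes the background readings of 8 markers. Of 7 pan-leukocyte markers, 4 were above background and all 4 read lower on the stimulated array, among them Cd53 at 9.73 and 9.56. Their differences ran from -0.17 to -0.01, and 6774 of all 14065 genes above background read lower. The summed level of the 7 was 1140 and 1028, and this sum includes the background readings of 3 markers. Most of it is Cd53, since the next highest marker, Cd37, read 6.21 and 6.10. Ptprc, which marks all leukocytes, was under background at 4.16 and 3.95. The summed level of the 8 eosinophil markers was 256 and 236, with 6 of them under background on both arrays. The part of these cell types in the chemokine readings was not tested.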

How the data were processed

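Each of 2 arrays (GeneChip Mouse Gene 2.0 ST) held RNA pooled from 3 cultures. The deposited values are log2 expression per probeset, for which the submitters' processing notes name Affymetrix Expression Console and RMA, with no version. RMA sets all arrays to one distribution, which removes any overall shift, and the arrays' values, each sorted, were within 0.0757 of each other. The platform annotation paired 23521 of 41345 probesets with 1 gene, 1814 with several and 16010 with none; the first were used, with current symbols from RefSeq (GRCm38.p6) for 23328. For genes with several probesets, the one with the highest mean stood for the gene. No genome build behind the probesets is named in the labels, so only promoter coordinates of the RefSeq table are printed.

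No test was possible with 1 array a group, and no p-value is given. Differences and counts past 2-fold were computed in Python 3.11.15 with pandas 2.3.3. The code was checked on simulated data with planted differences. That check does not measure the noise of these arrays or cover genes near background. Named were all members, other CC chemokines and CC receptors, list genes past 0.3, and for Ccl11, Ccl2 and Ccl7 the 3 genes nearest in difference, without predicted, microRNA, small nucleolar, olfactory and other CC chemokine genes; further list genes and markers were named after their values were seen. Members and lists were chosen with earlier results of these data known. Some list members are not analysed here. Alternatives changed the probeset rule, background, centring (median, or lowess in statsmodels 0.14.6), the treatment of values under background and the fold threshold.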

Additional observations from a re-analysis of the deposited data

How the results depend on the processing

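No paired analysis was possible because each condition is 1 array. The count of 3 members past 2-fold was the same with the mean of all probesets, a background at the 99th percentile, no background filter, values centred on the median or on a lowess trend, and values under background raised to it; at 1.5-fold it was 4. At 3-fold it was 1, Ccl11, as it was for all CC chemokines. The cluster median was between 1.38 and 1.39 in 5 alternatives and 1.22 with no background filter, which adds Ccl12. No median could be had for the members outside the cluster at the 99th percentile, where none is above background. Over all genes, 27 were higher and 6 lower past 2-fold as reported. With no filter these counts were 43 and 29, at 1.5-fold 112 and 90, and at 3-fold 11 and 0. They fell to 19 and 3 at the 99th percentile, and to 19 and 4 with values under background raised to it. All 36 recomputed member differences stayed within 0.153, the central spread of all genes, of the reported value. Pooled RNA and single arrays leave every difference without an error, and low readings such as those of Ccl5, Ccl20 and Ccl25 are limited by background.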

Other observations

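Some CC chemokine genes of the mouse have near-identical gene copies (Ccl19, Ccl21 and Ccl27). Their probesets are shared by several genes, so these shared probesets enter no count above. Ccl27a also has 2 probesets annotated to it alone, and it was counted by the brighter of them. That probeset had the same value on each array as some of the shared ones, so the count of Ccl27a may rest on a shared signal. The 9 probesets of the Ccl21 copies, ligands of Ccr7 that guide cells to lymph nodes, had 5 distinct pairs of values. All 5 were above background and all 5 read lower on the stimulated array, by differences from -0.23 to -0.13. The 13 probesets of the Ccl19 copies, which act on the same receptor, had 8 distinct pairs, 6 lower and 2 higher, and their median was -0.09. The 11 of the Ccl27 copies had 9 distinct pairs, 6 lower and 3 higher, and their median was -0.03. None of these probesets differed by 0.3 in either direction, and which copy they read cannot be told apart.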
